A study of Homo sapiens with 10 samples.

Results

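Chromosome arm 9p, the short arm of human chromosome 9, held a group of genes that mostly read lower with YAPS94A than with empty vector in HuCCT1 cells. Of this group, 58 genes are described here. The list named 59 genes of the arm, chosen because the region fell together in this same comparison. A gene was read by the brightest of its probe sets that carry 1 gene symbol, by mean signal over the 10 arrays. The 59th gene, NPR2, was not analysed here. The 58 genes stand among 19775 genes measured in the series and among 213 measured on the arm. The genes were chosen by their measured differences between YAPS94A and empty vector on these arrays, so these differences are a description, and no p-value is given for them.

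HuCCT1 is an established line of human intrahepatic cholangiocarcinoma, a cancer of the bile ducts. The series holds 5 arrays of cells with the construct labelled YAPS94A and 5 arrays of cells with an empty vector, both grown in the same supplemented RPMI medium. The sample labels and the title name S94A, a change in YAP1 known to weaken its binding to TEAD factors. The design text names S127A instead, so the construct is called here by its sample label. The labels give no clone, promoter, time after transfection or culture of origin, so the spread between the arrays of a vector may be technical.

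A chromosome arm is no pathway: its genes share a position and have mostly unrelated tasks. On 9p the genes for the checkpoint ligands PD-L1 and PD-L2 lie close to the gene for the kinase JAK2, and further along the arm lies the tumour suppressor locus CDKN2A and CDKN2B, which is often lost in bile duct cancer. The rest of the list serves transcription, ribosome production, RNA decay, protein turnover, membrane traffic, mitochondria and DNA repair.

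All values are log2 signals, and a difference is YAPS94A minus empty vector with its standard error (SE) from a limma fit over all 19775 genes. The SE of a further probe set of a gene is from a separate limma fit over the probe sets that carry 1 gene symbol. Array medians over all 54675 probe sets lay between 6.25 and 6.28. YAP1 read 12.87, 12.53, 12.90, 12.92 and 13.01 on the YAPS94A arrays, against 12.12, 12.05, 12.47, 12.48 and 12.49 on the empty vector arrays. These arrays did not overlap, and the YAP1 signal was 1.44-fold higher with YAPS94A (0.52 ± 0.11, adjusted p = 0.00277, limma). All 6 markers of biliary epithelium, keratins among them, read between 12.68 and 14.18. Their summed signal was 16.24 to 16.28 on the YAPS94A arrays and 16.08 to 16.12 on the empty vector arrays (log2 of the sum). All 5 measured leukocyte markers and all 5 endothelial markers read below the median gene level of 7.63, as did 4 of 6 fibroblast markers. The summed leukocyte signal was 8.13 to 8.35 with YAPS94A and 8.18 to 8.31 with empty vector, and the endothelial sum was 7.33 to 7.57 with YAPS94A and 7.48 to 7.57 with empty vector. The fibroblast sum was 11.05 to 11.29 with YAPS94A and 9.66 to 9.97 with empty vector. Only LUM, a matrix proteoglycan, passed the test among the fibroblast markers (10.70 with YAPS94A and 8.04 with empty vector), while COL1A2, COL3A1, DCN and PDGFRB stayed below the median gene level. COL1A1 read 8.71 with YAPS94A and 8.83 with empty vector and did not pass. Of the biliary markers, KRT7, KRT8, KRT18 and KRT19 were called higher with YAPS94A. Of the endothelial markers, CLDN5 was called lower (-0.16 ± 0.055, adjusted p = 0.0376, limma), and no leukocyte marker passed. The part of LUM in the 9p differences was not tested. The 3′ minus 5′ signal of GAPDH, a measure of RNA quality, spanned 0.11 to 0.22 with YAPS94A and 0.11 to 0.21 with empty vector, and that of ACTB 0.76 to 1.43 with YAPS94A and 0.84 to 1.51 with empty vector.

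The 9p genes were mostly well expressed and mostly lower with YAPS94A. Of the 58, 55 read above the median gene level, and none read below 4.73, the lower quartile of all signals. Their mean levels ran from 4.91 for MPDZ to 12.97 for GRHPR. The median difference was -0.34, or 0.788-fold, against a median of -0.0038 over all genes. The middle of the list lay between -0.55 and -0.15 (quartiles), and the extremes were -2.05 for GLDC and 0.34 for GALT. In all, 49 genes had a difference below 0. Of these, 7 were at -1 or lower, 9 lay between -1 and -0.5, and 33 lay between -0.5 and 0. The SEs ran from 0.029 to 0.16, with a median of 0.059. A lower signal in these bulk extracts does not tell fewer expressing cells from less RNA per cell, and DNA copy number was not analysed here.

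Past the limma threshold (adjusted p under 0.05 over all genes), 42 of the 58 genes were lower with YAPS94A (72.4%) and 3 were higher (5.17%). Over all genes, 17.6% were called lower, 18.6% higher and 36.3% in either direction. These shares are printed only for scale, since the genes were picked for being lower here. The shares also cover dim genes. In a fit of only the 9887 genes above the median gene level, 2735 were called lower and 2774 higher. The 3 genes called higher were GALT, NFIB and SMARCA2. The 13 genes not called were RFX3, GLIS3, JAK2, ERMP1, UHRF2, PSIP1, TOPORS, CHMP5, UBAP2, KIF24, DCTN3, HINT2 and GRHPR. On 36 genes every YAPS94A array read below every empty vector array, on 3 genes every YAPS94A array read above, and on 19 the arrays overlapped. Over all genes, 13.8% separated with YAPS94A lower and 15.3% with YAPS94A higher, 29.1% in all. SNAPC3, CNTLN, VCP, PIGO, UNC13B, CREB3 and SHB were called lower although their arrays overlapped, and GRHPR separated without being called.

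**Figure D1:**
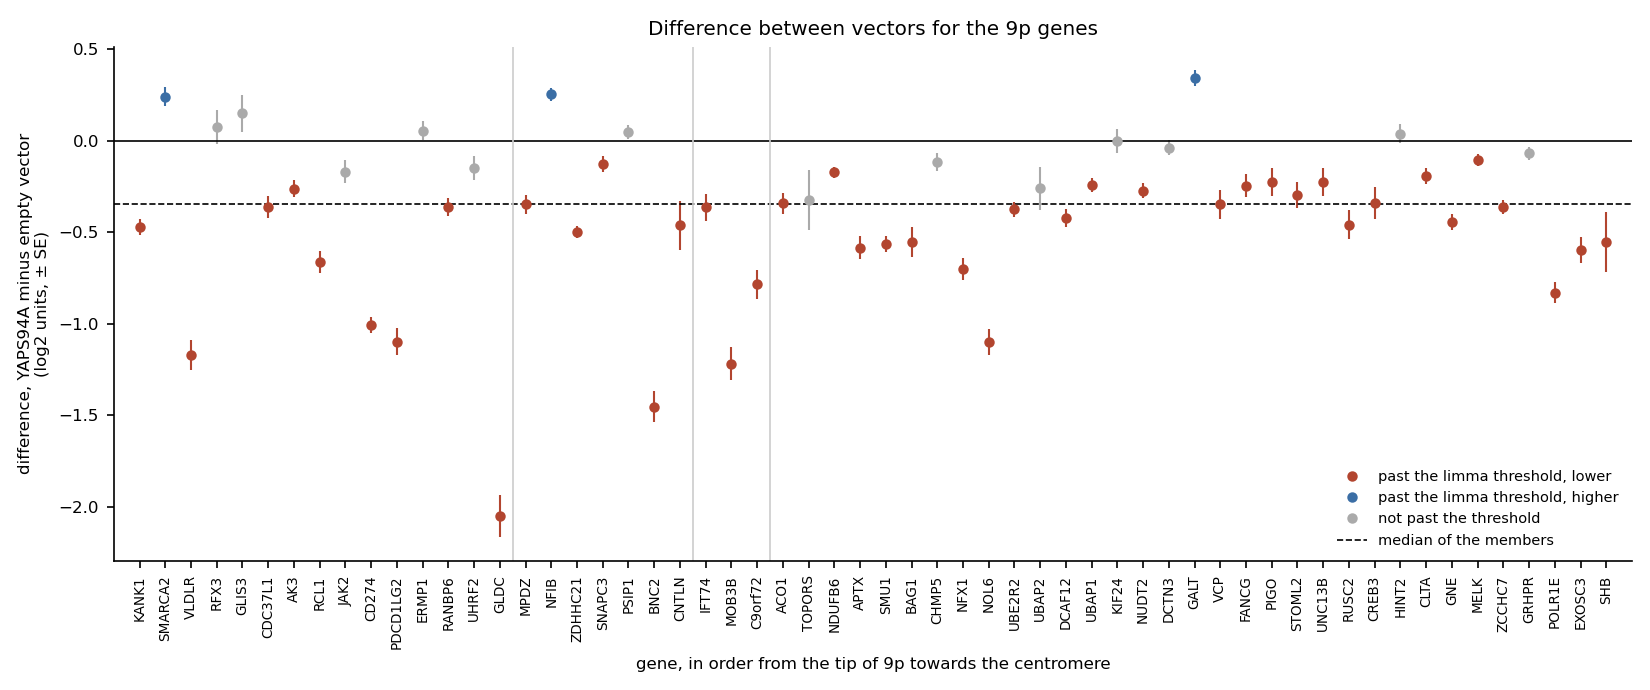
Difference between YAPS94A and empty vector (log2 units, points with SE bars) for each of the 58 listed genes, in order from the tip of 9p towards the centromere; grey vertical lines part the 4 stretches and the dashed line is the median of -0.34. Of the 58 points, 49 lie below 0, with GLDC lowest at -2.05 and GALT highest at 0.34.

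The lower signal ran along the whole list and was not held by 1 place. Split at the 3 widest gaps between neighbouring genes of the list, the arm gave 4 stretches. The stretch at the tip, KANK1 to GLDC, held 15 genes with a median difference of -0.36, of which 9 were called lower and 1 higher. The next, MPDZ to CNTLN, held 7 genes with a median of -0.35, of which 5 were called lower and 1 higher. IFT74, MOB3B and C9orf72 formed the third, with a median of -0.78 and all 3 called lower. The stretch nearest the centromere, ACO1 to SHB, held 33 genes with a median of -0.32, of which 25 were called lower and 1 higher. Neighbours could differ widely: GLDC (-2.05 ± 0.12) followed UHRF2 (-0.15 ± 0.067) on the list, and GALT (0.34 ± 0.043) lay between DCTN3 (-0.036 ± 0.038) and VCP (-0.35 ± 0.078).

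Of the immune genes on the list, the checkpoint ligands had the lowest differences. CD274 encodes PD-L1, a ligand that tumour cells use to restrain T cells. CD274 read 11.90, 11.76, 11.88, 11.95 and 11.92 on the YAPS94A arrays, against 12.80, 12.90, 12.87, 12.94 and 12.92 on the empty vector arrays. The lowest empty vector array stood well above the highest YAPS94A array, and the difference was -1.01 ± 0.044 (0.498-fold). The second probe set of CD274 gave -1.55 ± 0.064. PDCD1LG2 encodes PD-L2, the other ligand of PD-1. PDCD1LG2 read 7.17, 7.0, 7.18, 7.15 and 7.33 with YAPS94A, against 8.33, 8.06, 8.27, 8.25 and 8.41 with empty vector, a difference of -1.10 ± 0.072 (0.468-fold) with no overlap. JAK2 carries signals from interferon gamma and other cytokine receptors to STAT factors. JAK2 read 7.82, 7.74, 7.66, 7.59 and 7.69 with YAPS94A, against 7.97, 8.02, 7.89, 7.76 and 7.72 with empty vector. Its arrays overlapped and its difference of -0.17 ± 0.065 did not pass the threshold, a smaller difference than those of the ligand genes beside it.

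Partner genes outside 9p were taken from the same pathways and complexes as the 9p genes, and were tested in the same fit. Each partner count below is to be read beside the 17.6% of all genes called lower and the 18.6% called higher. For JAK-STAT signalling and PD-L1 control, 16 of 18 listed genes were measured. Of these, 3 fell with YAPS94A and 4 rose, with a median difference of 0.058, against 17.6% lower and 18.6% higher over all genes. IRF9, the DNA-binding subunit of the type I interferon complex, read 8.73, 8.59, 8.77, 8.90 and 8.89 with YAPS94A, against 7.08, 6.73, 7.37, 6.99 and 6.93 with empty vector (1.76 ± 0.10, adjusted p = 8.49e-08, limma). IRF1, which switches on CD274 after interferon gamma, read 10.76, 10.79, 10.75, 10.74 and 10.76 with YAPS94A, against 10.38, 10.21, 10.30, 10.26 and 10.24 with empty vector (0.48 ± 0.038, adjusted p = 1.01e-06, limma). Both rose with no overlap, and they were named as the 2 genes of smallest p on their list. A link between them and the CD274 difference was not tested.

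GLDC, the decarboxylase that starts glycine cleavage in mitochondria, had the lowest difference on the list. GLDC read 6.24, 5.99, 5.96, 6.39 and 6.35 on the YAPS94A arrays, against 8.10, 7.94, 8.51, 8.40 and 8.23 on the empty vector arrays. The groups lay more than 1 log2 unit apart at their closest, and the difference was -2.05 ± 0.12 (0.241-fold). Its level with YAPS94A was below the median gene level. Of 9 partner genes in glycine and serine metabolism, 1 fell (11.1%) and 2 rose (22.2%), with a median of 0.00079. Over all genes, 17.6% fell and 18.6% rose. GCSH, which carries the glycine intermediate in the same cleavage system, fell by 0.33 (SE 0.058, adjusted p = 0.000779, limma). PHGDH, the entry enzyme of serine synthesis, rose by 0.39 (SE 0.067, adjusted p = 0.000678, limma).

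The other metabolic genes differed less. VLDLR, a lipoprotein receptor, read 7.50, 7.61, 7.32, 7.51 and 7.24 with YAPS94A, against 8.76, 8.68, 8.67, 8.50 and 8.41 with empty vector. It did not overlap and stood at -1.17 ± 0.083 (0.445-fold). Of 6 measured genes of the LDL receptor family, 1 fell and 1 rose: the Wnt co-receptor LRP6 fell by 0.64 (SE 0.059, adjusted p = 3.99e-06, limma) and LRP8 rose by 0.21 (SE 0.037, adjusted p = 0.000794, limma). GNE, which starts sialic acid synthesis, stood at -0.44 ± 0.044, and ACO1, the cytosolic aconitase that also senses iron, at -0.34 ± 0.055. The mitochondrial adenylate kinase AK3 (-0.26 ± 0.048), the dinucleotide hydrolase NUDT2 (-0.27 ± 0.041) and the complex I subunit NDUFB6 (-0.17 ± 0.029) were lower with no overlap. NDUFB6 read 11.51 to 11.55 with YAPS94A and 11.70 to 11.72 with empty vector, the smallest SE on the list. GRHPR, an enzyme of glyoxylate removal and the brightest gene of the list, stood at -0.068 ± 0.035, and the mitochondrial hydrolase HINT2 at 0.039 ± 0.052. Of the 10 NDUFB partner subunits of complex I, 1 fell (10%) and 2 rose (20%), against 17.6% and 18.6% over all genes. NDUFB3 at -0.33 ± 0.033 (adjusted p = 9.68e-06, limma) was the one that fell.

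GALT, an enzyme of galactose breakdown, had the highest difference on the list. GALT read 9.70, 9.71, 9.77, 9.74 and 9.73 with YAPS94A, against 9.49, 9.31, 9.44, 9.30 and 9.40 with empty vector. Every YAPS94A array read higher, by 0.34 ± 0.043 on average (1.27-fold). The remaining probe sets of GALT were dim, at levels of 5.10 and 4.05, and stood at -0.17 and -0.053, and the mean over its probe sets differed by 0.040.

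Genes for transcription factors and chromatin went both ways. BNC2, a zinc finger protein, read 7.38, 7.04, 7.11, 7.06 and 7.31 with YAPS94A, against 8.43, 8.54, 8.72, 8.69 and 8.78 with empty vector. Its difference of -1.45 ± 0.085 (0.365-fold) was the second lowest on the list, without overlap. NFX1, a zinc finger repressor of MHC class II genes, read 9.87, 9.92, 9.89, 9.88 and 9.84 with YAPS94A, against 10.76, 10.52, 10.68, 10.52 and 10.43 with empty vector (-0.70 ± 0.060, 0.615-fold). The membrane-bound factor CREB3 stood at -0.34 ± 0.085 with overlap.

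NFIB, a nuclear factor I protein, read 12.48, 12.53, 12.51, 12.56 and 12.57 with YAPS94A, against 12.28, 12.32, 12.22, 12.30 and 12.27 with empty vector. All YAPS94A arrays were higher, by 0.25 ± 0.035 (1.19-fold). NFIX, 1 of 3 other genes of that family, rose by 0.55 (SE 0.057, adjusted p = 1.01e-05, limma), and a probe set of NFIX without shared targets gave 0.21 and an adjusted p of 0.327 (limma). SMARCA2 encodes a motor ATPase of SWI/SNF chromatin remodelling. SMARCA2 read 10.92, 10.99, 11.01, 10.99 and 11.15 with YAPS94A, against 10.66, 10.76, 10.87, 10.80 and 10.76 with empty vector, a difference of 0.24 ± 0.051 (1.18-fold) without overlap. Its probe sets disagreed, since the second brightest gave -0.46 ± 0.30 with overlapping arrays and the other 5 gave 0.051 to 0.49.

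GLIS3, a zinc finger factor, read 9.38, 9.09, 9.44, 9.41 and 9.43 with YAPS94A, against 8.94, 9.01, 9.31, 9.38 and 9.35 with empty vector (0.15 ± 0.10). RFX3, a regulator of cilium genes, read 9.22, 9.20, 9.17, 9.38 and 9.27 with YAPS94A, against 8.88, 9.47, 9.09, 9.23 and 9.18 with empty vector (0.078 ± 0.092). Both overlapped and neither was called, and RFX3 stood at -0.043 as the mean of its probe sets. The chromatin reader PSIP1 (0.049 ± 0.041), the ubiquitin ligases UHRF2 (-0.15 ± 0.067) and TOPORS (-0.32 ± 0.16) were not called either. Of 16 SWI/SNF partner genes, 6 fell and none rose, a share of 37.5% lower against 17.6% over all genes, with a median of -0.091. Of the 16, 15 read above the median gene level. A fit of only the 9887 genes above that level called 2735 lower and 2774 higher. BRD9, a bromodomain subunit, read 9.75, 9.62, 9.91, 9.89 and 9.84 with YAPS94A, against 10.52, 10.23, 10.51, 10.58 and 10.52 with empty vector (-0.67 ± 0.074, adjusted p = 1.71e-05, limma). ARID2 fell by 0.37 (SE 0.055, adjusted p = 0.000193, limma), and SMARCA4, the alternative ATPase, stood at -0.15 ± 0.077 (adjusted p = 0.175, limma).

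NOL6, RCL1 and POLR1E, which serve ribosome production, were called lower with YAPS94A. NOL6, a part of the small subunit processome that trims ribosomal RNA, read 9.97, 10.14, 9.96, 9.91 and 9.84 with YAPS94A, against 11.17, 11.22, 11.04, 10.90 and 10.99 with empty vector. The difference was -1.10 ± 0.071 (0.467-fold) with no overlap, and its second probe set gave -0.99. The remaining 2, dim at levels of 4.76 and 4.70, gave -0.22 and -0.21 with overlap, so that NOL6 stood at -0.63 as the mean of its probe sets and at -0.22 without probe sets of shared targets. RCL1, which acts in the same particle, stood at -0.66 ± 0.060 (0.632-fold). POLR1E, a subunit of RNA polymerase I, read 10.56, 10.65, 10.52, 10.50 and 10.48 with YAPS94A, against 11.53, 11.39, 11.41, 11.25 and 11.28 with empty vector (-0.83 ± 0.056, 0.563-fold). EXOSC3, an RNA-binding cap subunit of the RNA exosome, stood at -0.59 ± 0.072 (0.662-fold), on a probe set open to cross-hybridisation. ZCCHC7, which helps feed RNA to the nuclear exosome, stood at -0.36 ± 0.038, the spliceosome factor SMU1 at -0.56 ± 0.045, and SNAPC3, which starts small nuclear RNA genes, at -0.12 ± 0.043. The dimmer probe sets of SNAPC3 gave -0.38 with overlap, and -0.51 and -0.65 without overlap.

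The partners of these genes outside 9p were tested in the same fit, in which 17.6% of all genes were called lower and 18.6% higher. Of 22 small subunit processome genes, 19 fell and none rose, with a median of -0.28. Of 13 RNA polymerase I genes, 7 fell and 1 rose, with a median of -0.19, and of 11 exosome genes, 8 fell and none rose, with a median of -0.17. WDR75, a processome subunit, read 11.66, 11.56, 11.62, 11.69 and 11.69 with YAPS94A, against 12.07, 11.98, 12.09, 12.03 and 12.09 with empty vector (-0.41 ± 0.038, adjusted p = 4.71e-06, limma). POLR1C, shared by RNA polymerases I and III, read 11.40, 11.51, 11.30, 11.38 and 11.34 with YAPS94A, against 12.01, 11.86, 11.82, 11.68 and 11.76 with empty vector (-0.44 ± 0.061, adjusted p = 0.000121, limma). EXOSC2, like EXOSC3 a cap subunit but encoded on 9q, read 10.16, 10.34, 10.11, 10.11 and 10.14 with YAPS94A, against 10.69, 10.68, 10.64, 10.49 and 10.40 with empty vector (-0.41 ± 0.067, adjusted p = 0.000432, limma). None of these 3 overlapped, and EXOSC2 stood at -0.24 as the mean of its probe sets. WDR3 (-0.37 ± 0.033), POLR1G (-0.39 ± 0.055) and the exosome helicase MTREX (-0.28 ± 0.036) fell as well, MTREX standing at -0.12 as the mean of its probe sets. NOL6, RCL1 and POLR1E had lower differences than the median of their partners, a description without a test. Only these 3 were picked through a region that fell in this comparison, so the order is not read as a result. Of 4 other SNAPc genes, SNAPC4, also on 9q, fell (-0.36 ± 0.078, adjusted p = 0.00308, limma).

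VCP, the ATPase that pulls ubiquitin-tagged proteins out of membranes and complexes, read 11.45, 11.67, 11.42, 11.38 and 11.31 with YAPS94A, against 11.94, 11.93, 11.77, 11.64 and 11.68 with empty vector. The second YAPS94A array lay above the fourth empty vector array, and the difference was -0.35 ± 0.078 (0.787-fold). A second probe set gave -0.59 ± 0.074 with no overlap. Of its 13 partner genes, 3 were lower and 3 higher (23.1% each), against 17.6% lower and 18.6% higher over all genes. YOD1 fell by 0.33 (SE 0.033, adjusted p = 7.39e-06, limma) and FAF1 by 0.41 (SE 0.057, adjusted p = 0.00012, limma). The Hsp70 co-chaperone BAG1 stood at -0.55 ± 0.083, the ubiquitin-conjugating enzyme UBE2R2 at -0.37 ± 0.041 and DCAF12, a substrate receptor of cullin ligases, at -0.42 ± 0.048. The Hsp90 co-chaperone CDC37L1 stood at -0.36 ± 0.059. UBAP2 (-0.26 ± 0.12) and the endoplasmic reticulum peptidase ERMP1 (0.054 ± 0.052) were not called. ERMP1 read 11.85, 11.83, 11.70, 11.66 and 11.75 with YAPS94A, against 11.76, 11.82, 11.67, 11.64 and 11.63 with empty vector, and its difference became -0.043 when each array was centred on its median.

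Among genes of signalling and membrane traffic, MOB3B and C9orf72 had the lowest differences. MOB3B belongs to the MOB family, whose MOB1 members are cofactors of the Hippo kinases that restrain YAP1. MOB3B read 9.10, 8.87, 9.15, 9.22 and 9.27 with YAPS94A, against 10.08, 10.43, 10.29, 10.39 and 10.50 with empty vector (-1.22 ± 0.089, 0.430-fold). Its arrays did not overlap, and further probe sets gave -1.02, -1.37 and, at a level of 4.48, -0.058. C9orf72 acts in endosome traffic and autophagy. C9orf72 read 8.82, 8.61, 8.88, 8.86 and 8.89 with YAPS94A, against 9.39, 9.47, 9.61, 9.73 and 9.78 with empty vector (-0.78 ± 0.081, 0.581-fold), again without overlap. Its other probe sets, at levels of 5.57 and 4.23, gave -0.40 and -0.14 with overlap, and their mean with the brightest was -0.44. Its complex partners went opposite ways: WDR41 rose by 0.49 (SE 0.040, adjusted p = 1.26e-06, limma), and SMCR8 stood at -0.16 ± 0.050 (adjusted p = 0.0258, limma). Without probe sets of shared targets WDR41 stood at 0.13 (adjusted p = 0.0293, limma) and SMCR8 at -0.34 (adjusted p = 0.000619, limma). The SMCR8 call was lost without any 1 of YAPS94A arrays 1, 2 and 3 or empty vector arrays 1 and 3, with adjusted p from 0.0525 to 0.0622.

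CLTA, a clathrin light chain, stood at -0.19 ± 0.044 with no overlap, while the other chains rose. CLTC, the heavy chain, read 13.59, 13.61, 13.57, 13.55 and 13.54 with YAPS94A, against 13.38, 13.44, 13.38, 13.37 and 13.38 with empty vector (0.19 ± 0.032, adjusted p = 0.000594, limma), and CLTB rose by 0.24 (SE 0.051, adjusted p = 0.00311, limma). Of 7 clathrin and AP-2 partners, 4 rose and none fell, and 1 rose when each array was centred on its median, a setting under which CLTC did not pass (0.089, adjusted p = 0.0778), while the mean of the CLTC probe sets was 0.33. IFT74, of the intraflagellar transport B complex that builds cilia, stood at -0.36 ± 0.074 with no overlap. Of its 15 measured partners, 7 rose and none fell, with a median of 0.18; with each array centred on its median, 4 rose and 2 fell. IFT70A, listed under an older name, read 7.68, 7.56, 7.53, 7.75 and 7.82 with YAPS94A, against 6.54, 6.40, 6.64, 6.66 and 6.68 with empty vector (1.09 ± 0.070, adjusted p = 1.75e-07, limma), and IFT22 rose by 0.30 (SE 0.039, adjusted p = 6.72e-05, limma).

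UBAP1, of the ESCRT-I complex that sorts cargo for the lysosome, stood at -0.24 ± 0.039 without overlap, and the ESCRT-III protein CHMP5 at -0.11 ± 0.049. Of 17 ESCRT partners, 2 fell (11.8%) and 4 rose (23.5%), against 17.6% and 18.6% over all genes. CHMP2B stood at -0.53 ± 0.063 (adjusted p = 3.3e-05, limma) and VPS28 at 0.44 ± 0.037 (adjusted p = 1.6e-06, limma). DCTN3, a shoulder subunit of the dynein adaptor dynactin, stood at -0.036 ± 0.038. Among 9 dynactin partners DCTN6 rose by 0.24 (SE 0.050, adjusted p = 0.00228, limma). DCTN5 stood at -0.25 ± 0.078 (adjusted p = 0.0277, limma), a call lost on leaving out any 1 of YAPS94A arrays 3, 4 and 5 or empty vector arrays 1, 2 and 3, with adjusted p from 0.0513 to 0.0688. PIGO, which completes GPI anchors, stood at -0.22 ± 0.077 with overlap. Of 12 genes of the same route, 2 fell and 5 rose, whereas 3 fell and 3 rose with each array centred on its median, and PIGB rose by 0.38 (SE 0.058, adjusted p = 0.000239, limma). The importin-like RANBP6 (-0.36 ± 0.051), the palmitoyltransferase ZDHHC21 (-0.50 ± 0.032) and RUSC2 (-0.46 ± 0.077), a Rab-binding protein, were lower with no overlap. UNC13B, a priming factor for vesicle release, stood at -0.22 ± 0.078 and overlapped.

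Genes of the cell cycle, DNA repair and cell shape completed the list. MELK, a kinase of dividing cells, read 11.60, 11.59, 11.65, 11.60 and 11.65 with YAPS94A, against 11.76, 11.68, 11.76, 11.69 and 11.73 with empty vector. The arrays did not overlap, yet the difference was only -0.10 ± 0.034 (0.931-fold), the smallest among the genes called lower. APTX, which repairs stalled DNA ligation ends, stood at -0.58 ± 0.062. FANCG, of the Fanconi core complex for crosslink repair, stood at -0.25 ± 0.063. Of 9 Fanconi partners 1 fell (11.1%) and 2 rose (22.2%), against 17.6% and 18.6% over all genes. The 2 that rose were FANCF at 0.32 ± 0.038 (adjusted p = 2.76e-05, limma) and FAAP24 at 0.35 ± 0.050 (adjusted p = 0.000137, limma). The centrosome protein CNTLN stood at -0.46 ± 0.13 with overlap, and the kinesin KIF24 at 0.0018 ± 0.066 on a level of 5.21. KANK1, an organiser of actin at adhesions, stood at -0.47 ± 0.046, the adaptor SHB at -0.55 ± 0.16 with the largest SE of the list, and the junction scaffold MPDZ at -0.35 ± 0.053 on the lowest level. STOML2, a scaffold of the inner mitochondrial membrane, stood at -0.30 ± 0.072.

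**Figure D2:**
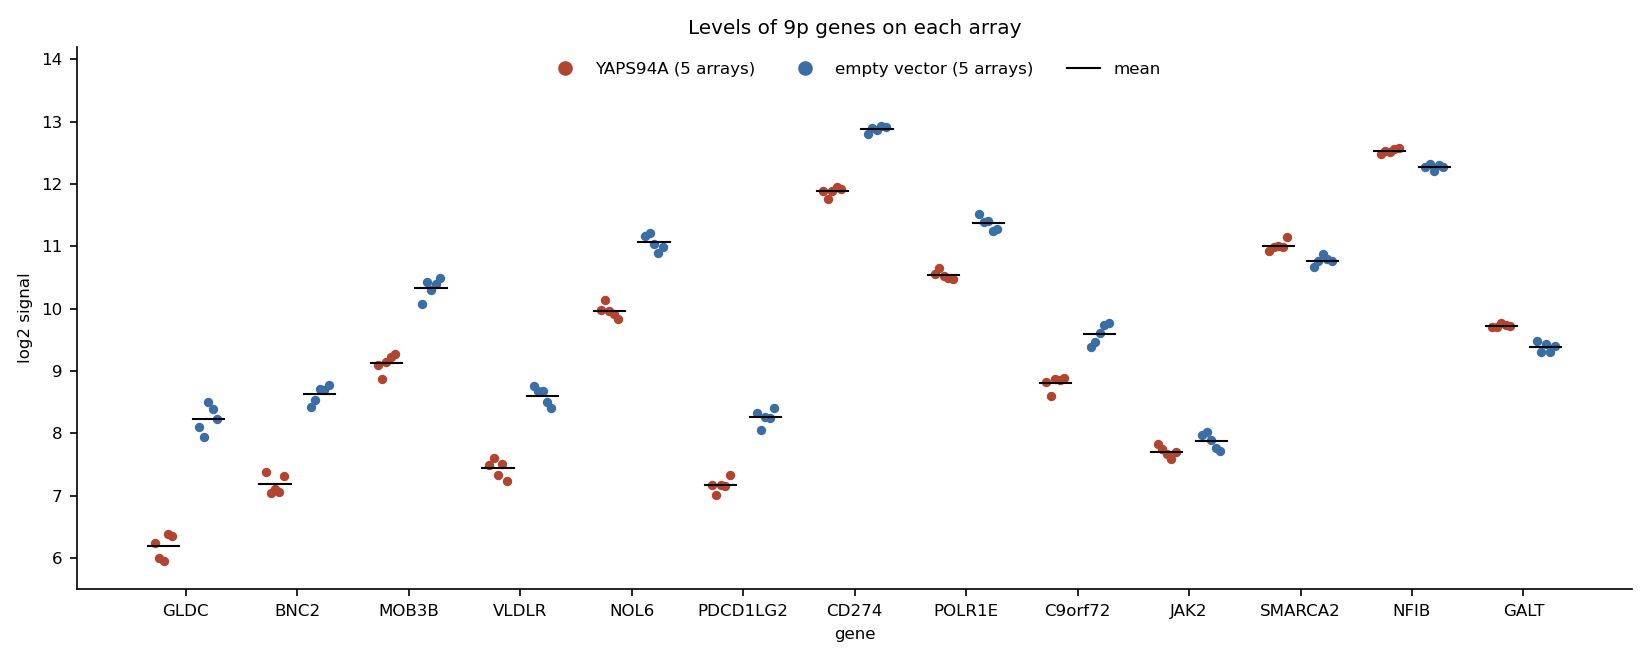
Log2 signal of listed 9p genes on each of the 10 arrays, with YAPS94A arrays left of empty vector arrays and a black line at the mean of 5 arrays. GLDC, BNC2, MOB3B, VLDLR, NOL6, PDCD1LG2, CD274, POLR1E and C9orf72 separate downward with YAPS94A, JAK2 overlaps, and SMARCA2, NFIB and GALT separate upward.

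The other probe sets of the same genes mostly kept the direction of the brightest. Of the 58 genes, 41 had more than 1 probe set, which gave 102 dimmer ones. The 54 of these that read above the median gene level came from 31 genes and had a median difference of -0.42. Of the 54, 42 were below 0 and 52 had the sign of the brightest probe set of their gene. The 48 dimmer probe sets at or below the median gene level had a median of -0.20. All 6 probe sets of BNC2 lay between -1.45 and -0.88, and POLR1E gave -1.03 and -0.55 besides its brightest. Probe sets of a gene read the same RNA extracts and are no further replicates. Across the 58 genes, level and difference had a Spearman rho of 0.32 and a Pearson r of 0.32, the dimmer genes having the lower differences, with all points sharing the same 10 arrays.

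On single arrays the shift was of like size. For each array, the median was taken over the genes of the signal minus the gene's empty vector mean. For the listed genes it was -0.32, -0.26, -0.31, -0.37 and -0.38 on the YAPS94A arrays (mean -0.33 ± 0.047, SD, n = 5). It was 0.043, 0.016, 0.021, -0.031 and -0.015 on the empty vector arrays (mean 0.0068 ± 0.030, SD, n = 5). No YAPS94A array came near the empty vector arrays. The genes were chosen for their fall on these same arrays, so this separation is a description. The other 9p genes gave -0.081 ± 0.031 with YAPS94A and 0.0023 ± 0.021 with empty vector, and the 9q genes 0.0054 ± 0.027 with YAPS94A and 0.0016 ± 0.035 with empty vector (SD, n = 5 each). Within a vector the listed genes hardly moved together: the median correlation of their deviations from the vector mean over pairs of genes was 0.045 among the 55 genes above the median level, 0.12 among 300 such 9q genes and 0.035 among 9887 such genes in all. These correlations rest on 10 arrays shared by all genes.

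**Figure D3:**
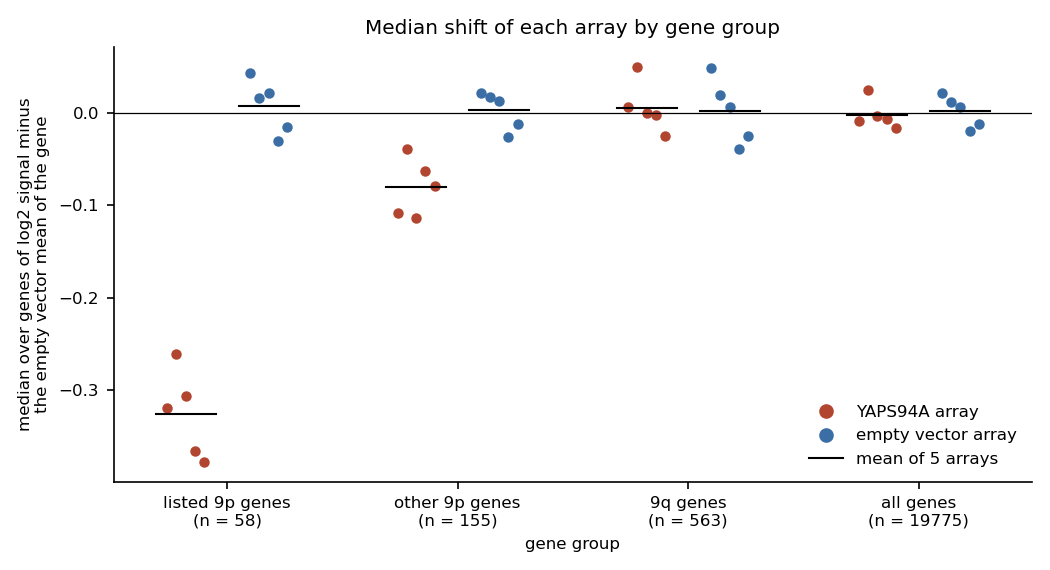
Median over genes of log2 signal minus the gene's empty vector mean, for each array, in the 58 listed 9p genes, the 155 other 9p genes, the 563 9q genes and all 19775 genes; YAPS94A arrays stand left of empty vector arrays and the line is the mean of 5. Among the listed genes, which were chosen for their fall on these arrays, the YAPS94A arrays sit at -0.38 to -0.26, apart from the empty vector arrays. For 9q and all genes both vectors lie near 0.

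The rest of the arm was lower too where it was expressed. The 155 other measured 9p genes had a median difference of -0.069, with 57 called lower (36.8%) and 15 higher. Among the 52 of them above the median gene level the median was -0.28, with 37 lower (71.2%) and 7 higher. Of all 9887 genes above that level, fitted alone, 2735 were called lower and 2774 higher. The 103 at or below that level had a median of -0.023, with 20 lower and 8 higher. The largest falls among the brighter ones were SPINK4, a secreted protease inhibitor of goblet cells, TPM2, a tropomyosin, PLGRKT, a plasminogen receptor, RIC1, a Golgi trafficking factor, and AQP3, a water and glycerol channel. SPINK4 averaged 7.72 ± 0.15 with YAPS94A and 9.45 ± 0.14 with empty vector (SD, n = 5 each), a difference of -1.73 ± 0.082. TPM2 stood at -1.26 ± 0.048, or -0.65 as the mean of its probe sets, PLGRKT at -0.85 ± 0.076, RIC1 at -0.83 ± 0.059 and AQP3 at -0.80 ± 0.090.

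Some genes of the arm went the other way. HACD4, an enzyme of very long chain fatty acid synthesis, averaged 8.92 ± 0.065 with YAPS94A and 7.66 ± 0.12 with empty vector (1.26 ± 0.059), and its probe sets averaged to 0.62. SLC1A1, a glutamate transporter, averaged 9.41 ± 0.088 with YAPS94A and 8.30 ± 0.14 with empty vector (1.10 ± 0.069). MIR31HG, a long noncoding RNA, differed by 0.58 ± 0.064, TTC39B by 0.44 ± 0.058 and CDKN2B, an inhibitor of cyclin D kinases, by 0.33 ± 0.062, or 0.13 as the mean of its probe sets. Named after their values were seen, CDKN2A differed by 0.22 ± 0.042, on a probe set open to cross-hybridisation, and its neighbour MTAP, a methionine salvage enzyme, by -0.39 ± 0.056. HACD4, MIR31HG, MTAP, CDKN2A and CDKN2B lie between CNTLN and IFT74 in RefSeq order, a gap in which no gene of the list lies. Of genes above the median level there, HACD4, MIR31HG, CDKN2A and CDKN2B were called higher. Called lower besides MTAP, and named after their values were seen, were HAUS6 (-0.73), MLLT3 (-0.43), PLAA (-0.43), FOCAD (-0.39), CAAP1 (-0.28), TUSC1 (-0.25) and DENND4C (-0.17). Like the list, these genes belong to the arm chosen for its fall, so they are given as a description.

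The long arm of chromosome 9, which the choice did not use, stood close to the background. Of 563 measured 9q genes, 87 fell (15.5%) and 108 rose (19.2%), with a median difference of 0.0047, against 17.6% lower and 18.6% higher over all genes. Among 300 9q genes above the median level, 66 fell and 76 rose. All 9887 genes above that level, fitted alone, gave 2735 lower and 2774 higher. A running median over 11 neighbouring genes above the median level was below 0 in all 102 windows centred on 9p, from -0.56 around SPINK4 to -0.039 around HACD4. On 9q it was below 0 in 110 of 295 windows, and ran from -0.20 around ERP44 to 0.25 around ERCC6L2. Windows next to the centromere hold genes of both arms. Of the 3 measured 9q genes nearest the centromere, LINC01410, a noncoding RNA, averaged 7.12 ± 0.11 with YAPS94A and 7.55 ± 0.097 with empty vector and fell by 0.43 (SE 0.061, adjusted p = 0.000139, limma). PTGER4P2-CDK2AP2P2 stood at -0.071 ± 0.053 (adjusted p = 0.352, limma) and LERFS at 0.012 ± 0.045 (adjusted p = 0.882, limma). The short arm of chromosome 10, itself picked for a joint rise in this same comparison, is no neutral reference. It had 180 measured genes with a median of 0.13, of which 11 fell and 82 rose (45.6%).

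**Figure D4:**
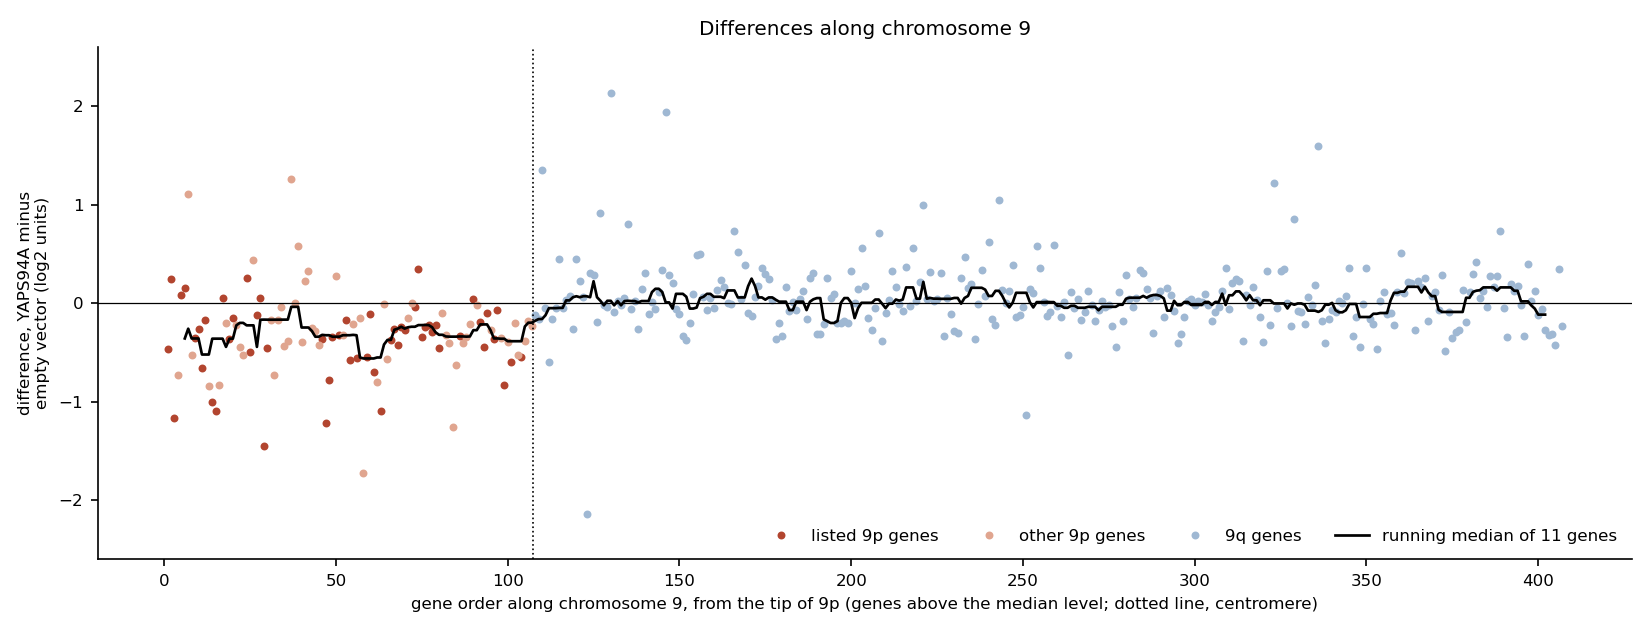
Difference between YAPS94A and empty vector (log2 units) for genes of chromosome 9 above the median gene level, in gene order from the tip of 9p, with listed 9p genes, other 9p genes and 9q genes as points and the running median of 11 genes as a line; the dotted line is the centromere. The line stays below 0 over all 102 9p windows and runs between -0.20 and 0.25 on 9q.

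Taken over all 18 lists, the partner genes outside 9p were not uniformly lower. Of 194 measured, 57 fell (29.4%) and 38 rose (19.6%), with a median difference of -0.0081. Of the 194, 186 read above the median gene level. The 9887 genes above that level, fitted alone, gave 2735 lower and 2774 higher. Without the processome, polymerase I and exosome lists, 23 of 148 fell (15.5%) and 37 rose (25%), with a median of 0.038. The lists were drawn up with earlier results of these arrays known, which already showed lower ribosome production genes, so these counts are no separate evidence of a direction. Some lists had calls in 1 direction only. For the SWI/SNF, processome, exosome, clathrin, intraflagellar transport and NFI lists, the count the other way was also 0 at an unadjusted p under 0.05 (limma). For SNAPc it was 1. When each array was centred on its median over the 19775 genes, the all-gene median difference moved to -0.10. Then 6974 genes were called lower and 2650 higher, against 3484 lower and 3688 higher as deposited. The counts of partner genes that rose are therefore relative to the scaling.

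**Figure D5:**
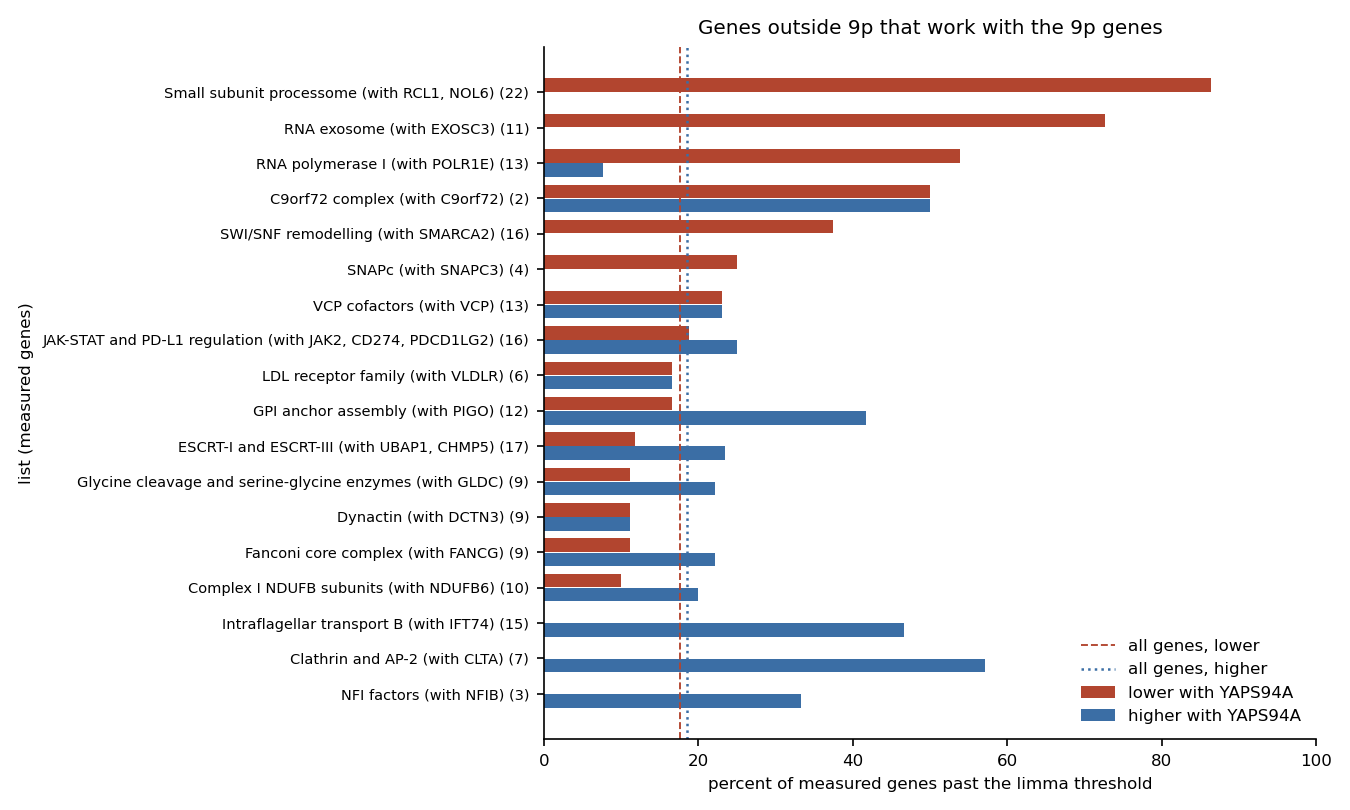
Percent of measured genes past the limma threshold in each of 18 lists of genes outside 9p that work with listed 9p genes, with bars for genes lower and higher with YAPS94A; the number of measured genes is in brackets, and vertical lines mark the 17.6% lower and 18.6% higher over all genes. The small subunit processome (19 of 22 lower) and the exosome (8 of 11 lower) have the longest bars for lower genes, and intraflagellar transport B (7 of 15) and clathrin (4 of 7) are among the lists with more genes higher.

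The promoters of the listed genes were read from RefSeq sequence of build GRCh38.p14, from 250 bases before to 50 bases after the gene's start, and 52 of the 58 genes had one. Their GC content had a median of 63.2%, from 43.3% in GNE to 85.0% in SHB, against a median of 63.0% over 15384 promoters of measured genes. Letters were searched on both strands. The TEAD motif CATTCC or GGAATG occurred in 7 of 52 (13.5%), against 11.9% of all measured promoters. The AP-1 motif TGANTCA occurred in 2 (3.85%, against 5.84%), and the E-box CACGTG in 5 (9.62%, against 8.90%). The interferon-response letters, GAAA, any 2 bases and GAAA, or the same on the other strand, occurred in 4 (7.69%, against 2.94%), namely CD274, NFIB, GALT and EXOSC3. The counts are small, and a match is a run of letters in this window and not a bound site.

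The TEAD motif stood in KANK1 (-0.47), GNE (-0.44), TOPORS (-0.32), UBAP1 (-0.24), UNC13B (-0.22), GRHPR (-0.068) and DCTN3 (-0.036). The E-box stood in NOL6, RCL1 (-0.66), UBAP2 (-0.26), MELK (-0.10) and GALT. The AP-1 motif stood in SMARCA2 (0.24) and DCTN3, and interferon-response letters in CD274, EXOSC3 (-0.59), NFIB and GALT. A part of these letters in the differences was not tested. As examples, 4 promoters are shown, each 5′ to 3′ on the strand of its gene. Capitals mark interferon-response letters in CD274 (chr9:5450292-5450591, plus strand, difference -1.01) and in NFIB (chr9:14322338-14322637, minus strand, difference 0.25), where the run in CD274 holds 2 overlapping matches. They mark the E-box in NOL6 (chr9:33473875-33474174, minus strand, difference -1.10), and both the E-box and the interferon-response letters, in that order, in GALT (chr9:34646425-34646724, plus strand, difference 0.34).
CD274: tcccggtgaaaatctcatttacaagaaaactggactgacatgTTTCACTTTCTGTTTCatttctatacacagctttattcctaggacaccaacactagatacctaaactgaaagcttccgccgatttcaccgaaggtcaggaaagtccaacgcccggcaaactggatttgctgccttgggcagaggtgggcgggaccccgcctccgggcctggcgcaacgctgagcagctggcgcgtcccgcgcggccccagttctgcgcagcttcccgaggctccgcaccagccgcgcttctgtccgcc
NFIB: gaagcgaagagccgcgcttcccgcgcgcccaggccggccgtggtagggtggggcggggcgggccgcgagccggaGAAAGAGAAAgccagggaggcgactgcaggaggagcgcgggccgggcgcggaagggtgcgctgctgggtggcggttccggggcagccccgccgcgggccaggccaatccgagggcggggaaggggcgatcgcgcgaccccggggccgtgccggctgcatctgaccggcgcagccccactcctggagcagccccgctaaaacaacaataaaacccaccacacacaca
NOL6: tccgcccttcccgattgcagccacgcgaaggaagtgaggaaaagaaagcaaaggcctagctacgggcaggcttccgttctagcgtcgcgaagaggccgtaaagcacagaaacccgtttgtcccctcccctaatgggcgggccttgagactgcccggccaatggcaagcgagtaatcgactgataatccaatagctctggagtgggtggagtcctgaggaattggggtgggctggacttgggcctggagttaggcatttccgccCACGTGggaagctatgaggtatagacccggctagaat
GALT: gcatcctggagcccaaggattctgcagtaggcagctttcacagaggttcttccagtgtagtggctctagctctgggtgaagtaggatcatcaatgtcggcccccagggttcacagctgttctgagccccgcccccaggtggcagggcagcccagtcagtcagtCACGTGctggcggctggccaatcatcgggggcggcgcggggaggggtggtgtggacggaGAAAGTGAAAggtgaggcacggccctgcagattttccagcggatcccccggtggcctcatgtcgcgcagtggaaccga

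Some listed genes start close to a neighbour that runs the other way, and their values are given side by side. BAG1 and CHMP5 start 341 bases apart and stood at -0.55 ± 0.083 and -0.11 ± 0.049. KIF24 and NUDT2 start 301 bases apart and stood at 0.0018 ± 0.066, on the dim level of 5.21, and -0.27 ± 0.041. APTX starts 153 bases from DNAJA1, an Hsp40 chaperone gene outside the list, and they stood at -0.58 ± 0.062 and -0.21 ± 0.031. CREB3 starts 471 bases from TLN1, the gene of the adhesion protein talin, and they stood at -0.34 ± 0.085 and -0.63 ± 0.13. The 2 genes of a pair share the bases between their starts, and the difference between them was not tested.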

How the data were processed

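The values are log2 probe set signals deposited by the authors for 10 arrays of an Affymetrix platform. Per the labels, RNA was amplified with NuGEN Ovation reagents and its cDNA labelled with biotin. The authors' summarisation and normalization of probes are not given in the sources used here. The array medians over all probe sets were nearly equal, and the values were left as deposited. Medians over the 19775 genes differed more between the vectors. Centring each array on that median moved the all-gene median difference from -0.0038 to -0.10. Signals spanned 2.86 to 14.43. They carry no molecule counts, so the number of arrays limits the precision.

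Of 54675 probe sets, 41097 carried 1 gene symbol in the platform annotation, 1801 carried several and 11777 none. Symbols were updated through Entrez identifiers to RefSeq (41048 matched), which also gave gene order and arm, and the brightest probe set per gene left 19775 genes, with no filter on low values. The vectors were compared with limma 3.58.1 in R 4.3.3 (lmFit and eBayes, no covariate, two-sided, Benjamini-Hochberg over all genes, adjusted p under 0.05). The fit was tested on simulated data.

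The 9p genes, the 18 partner lists and the markers were chosen with earlier results of these data known. Named with all array values were 10 members of biological note, the 10 lowest and 6 highest members and YAP1. Named besides were the 2 partner genes of smallest p per list if past the threshold, the 5 lowest and 5 highest called other 9p genes above the median level, and the 3 9q genes nearest the centromere. SMARCA4, CDKN2A, MTAP, DMRT1, INSL4, RLN2 and PLIN2 were named after their values were seen, and DNAJA1 and TLN1 by gene order. HAUS6, MLLT3, PLAA, FOCAD, CAAP1, TUSC1 and DENND4C were also named after their values were seen. No 2 arrays held identical values, and correlations were 0.9957 to 0.9991 within and 0.9867 to 0.9902 between vectors. The labels number the arrays of each vector 1 to 5, and deviations of same-numbered arrays correlated at 0.102 to 0.590, so the numbers were treated as a possible pairing, which rests on this check alone, since no label names a batch. Alternatives were 2 rescalings, only genes above the median level, 2 other ways to choose probe sets, an intensity trend, array weights, a replicate block and each array left out.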

Additional observations from a re-analysis of the deposited data

Results flagged for a closer look

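On 2 of the named 9p genes 1 of the 5 YAPS94A arrays stood apart from the rest. For GLIS3 the second YAPS94A array read 9.09 while the other 4 read 9.38 to 9.44, a gap of 0.829 of the whole range, and the difference between the vectors was 0.22 without it, against 0.15 with it. For C9orf72 the second YAPS94A array read 8.61 while the other 4 read 8.82 to 8.89, a gap of 0.768 of the range, and the difference was -0.73 without it, against -0.78 with it. Across all 58 genes and both vectors, 6 of 116 groups of 5 arrays passed the critical value of 0.71, and chance alone flags about 1 group in 20.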

How the results depend on the processing

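The members called lower numbered 34 to 48 under the rescalings, probe set choices and model settings, against 42, and 37 to 42 with 1 array left out. Not all of these counts are out of 58 genes. The setting of only genes above the median level held 55 members. Without probe sets of shared targets, genes with no other probe set, such as VLDLR, dropped out. The median difference of the members ran from -0.36 to -0.32 with 1 array left out and was -0.44 when each array was centred on its median. That centring also gave 184 lower 9q genes, against 87, and 87 lower partner genes, against 57, and 27.5% of all calls were then higher, against 51.4%. It shifts every gene by about -0.10, which its construction shows. With 1 array left out, lower genes numbered 76 to 88 on 9q, 48 to 57 among other 9p genes and 47 to 60 among partners, and all calls 6524 to 7206. With the replicate block (the possible pairing), the members called lower numbered 46, lower 9p genes off the list 61, lower 9q genes 102, lower partners 58 and all calls 8154; it ended the call of no named gene. Without probe sets of shared targets SMARCA2 stood at -0.46 and NDUFB1 at -0.024, both reversed, and the cause was not tested. CLTC, DCTN6, PIGU and LRP8 lost their calls with arrays centred on the median, NFIX without probe sets of shared targets and NDUFB1 with the mean of probe sets, while PTGER4P2-CDK2AP2P2 gained one (adjusted p = 0.0200, limma, with a range of 0.0200 to 0.647 over its alternatives). Signals near the lower quartile, as for MPDZ and KIF24, can hide differences.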

Other observations

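Some other genes of 9p, named after their values were seen, had large differences. DMRT1, a regulator of germ cell and testis genes, read 3.98 to 4.14 on the YAPS94A arrays and 7.64 to 8.03 on the empty vector arrays, a difference of -3.82 ± 0.069 (SE). INSL4 and RLN2, neighbouring relatives of the hormone relaxin, stood at -2.24 ± 0.047 and -1.52 ± 0.087, with no overlap in either. PLIN2, a coat protein of lipid droplets, read 8.85 to 9.17 with YAPS94A and 5.69 to 6.11 with empty vector, a difference of 3.09 ± 0.091. All 4 had mean levels at or below the median of all genes, so the rule for naming brighter genes of the arm passed them over.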
